A study of Mus musculus with 6 samples.

Results

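Mir223 is the gene of a microRNA (miRNA), an RNA of about the length of the reads described here that pairs with messenger RNAs and lowers their translation or stability. Its hairpin was chosen by name, as 1 of 1174 annotated mouse miRNA hairpins, and every read of 18 nt or more that matched it was counted, by arm. The reads come from small RNA sequencing of bone marrow monocytes/macrophages (BMMs) of wild-type C57BL/6 mice, with 3 control samples that received PBS and 3 samples that received lipopolysaccharide (LPS), the endotoxin of Gram-negative bacteria, at 5 pg/ml for 4 h. Neither group carries a transgene or deletion, and the methods give male mice of 7 to 10 weeks. The labels call the cells monocytes and name DMEM as the medium where the methods name RPMI, and neither says whether the replicates are separate cultures or animals, so the p-values may measure technical spread only.

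miR-223 is known as a miRNA of the myeloid lineage. Its gene is driven by the myeloid transcription factors PU.1 and C/EBP, it is abundant in granulocytes and monocytes, and it falls as monocytes become macrophages. Its 3p arm is the strand that is loaded into Argonaute and acts on targets, among them Nlrp3, the sensor of an inflammasome, Mef2c, a transcription factor of myeloid progenitors, and Igf1r, a growth factor receptor. The 5p arm is the other side of the same stem and is usually degraded.

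In these BMMs the mean level of miR-223-3p was 5818 ± 244 RPM (reads for every 1000000 hairpin reads) in control and 5747 ± 170 in LPS samples (SD, n = 3), a difference smaller than the spread. After normalization for library composition (TMM) the groups did not overlap, at 5868 ± 68.0 against 5694 ± 70.9. LPS samples lay wholly below control samples in 1.57% of the 319 arms tested, and wholly above them in 1.57%. The log2 fold change of miR-223-3p, -0.04, did not pass the test (edgeR adjusted p = 0.994). The level varied less between the samples than that of most other arms. Both arms had 3′ ends far from those of the reference. Most miR-223-3p reads were shorter than the reference miRNA and most miR-223-5p reads were longer, in every sample of both groups.

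Mir223 lies on the plus strand of chromosome X, from 96242817 to 96242926 in the GRCm38 assembly (110 nt), as a gene of its own (ENSMUSG00000076066 in GENCODE M21). The hairpin of GENCODE equals that of RefSeq. The mature 5p arm in RefSeq takes positions 26 to 48 of the hairpin (23 nt, chromosome X from 96242842 to 96242864), and the 3p arm takes positions 68 to 89 (22 nt, from 96242884 to 96242905). The reference sequences are shown with the reads that were most frequent, since the 2 differ in each arm. Capitals mark the seed, bases 2 to 8, with which a miRNA recognizes its targets.
miR-223-3p, RefSeq: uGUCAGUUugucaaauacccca
miR-223-3p, most frequent read: uGUCAGUUugucaaauacc
miR-223-3p, second: uGUCAGUUugucaaauac
miR-223-3p, next: uGUCAGUUugucaaauaccc
miR-223-3p, read that starts 1 base later: gUCAGUUUgucaaauaccccaa
miR-223-5p, RefSeq: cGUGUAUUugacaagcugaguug
miR-223-5p, most frequent read: cGUGUAUUugacaagcugaguuggacac
miR-223-5p, second: cGUGUAUUugacaagcugaguuggaca
The 3 most frequent 3p reads share the start and the seed of the reference and differ at the 3′ end only. The seed GUCAGUU of miR-223-3p was found in no other miRNA among 1679 mature mouse miRNAs of RefSeq, so miR-223 is a family of 1. The same holds for the seed GUGUAUU of miR-223-5p.

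The samples held 2201520 to 17691405 reads, of which 61.6% to 71.0% matched a hairpin, or 1498849 to 10927393 hairpin reads a sample. LPS replicate 2 stood apart from the rest. It had the most reads, and sequences seen a single time made up 18.6% of its distinct sequences and 67.1% to 74.6% of those of the other 5. It also held higher levels of several miRNAs, such as miR-24-3p and miR-146, so the differences that it moves most are also given without it. Of 21 hairpins that mark other cells, 17 had reads. Their summed levels were 784 to 1032 in control and 612 to 1010 RPM in LPS samples for the erythroid list, 78.2 to 98.6 and 83.6 to 173 for the epithelial list, 231 to 300 and 216 to 331 for the neuronal list, and 10.99 to 11.73 and 7.34 to 14.2 for the mesenchymal list. The erythroid sum was almost wholly the Mir486 5p arm, with 1193 to 6653 reads a sample. Mir451a had 0 to 6 reads a sample and Mir144 0 to 1. The neuronal sum was mostly the Mir128 3p arm, with 399 to 3538 reads a sample, against 4 to 10 for the Mir9 5p arm. Mir150 of lymphocytes was at 14.9 to 23.2 and 15.5 to 49.2 RPM, and Mir126a of endothelium and megakaryocytes at 34.4 to 46.9 and 33.8 to 50.3 RPM. Mir122 of liver had 0 reads in 4 samples, which allows up to 0.947 to 2.00 RPM at these depths, and the muscle list reached at most 0.583. LPS replicate 2 had the highest lymphoid, epithelial, neuronal, Mir126a and Mir122 levels and the lowest erythroid sum, and their part in the results below was not tested. Granulocytes share miR-223 with monocytes and could not be told apart by a miRNA here.

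Reads of miR-223-3p, the acting arm, numbered 14363, 9849 and 14406 in the control samples and 17767, 62277 and 8897 in the LPS samples, in the order of their replicate numbers. Its level was 5617, 5747 and 6089 RPM in the control samples and 5607, 5699 and 5936 RPM in the LPS samples. The groups overlapped, and the sample with number 3 was the highest in each. An exact permutation test did not separate the group means from the spread (two-sided p = 0.6, n = 3), and the smallest p that 3 samples a group can give is 0.1. Between samples with the same replicate number, LPS was lower in 3 of 3 pairs, with LPS minus control at -9.90, -47.5 and -154 RPM (exact sign-flip permutation p = 0.25, the smallest that 3 pairs can give). The 95% Wilson interval of a single sample, which covers counting error only, was narrowest in LPS replicate 2 (5655 to 5744) and widest in LPS replicate 3 (5814 to 6060). In bulk samples such as these, fewer cells of a type and less RNA per cell cannot be told apart.

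edgeR's quasi-likelihood test over 319 arms gave miR-223-3p a log2 fold change, LPS against control, of -0.04 (standard error 0.10, 95% interval -0.29 to 0.20, Benjamini-Hochberg adjusted p = 0.994). The test estimates the spread of an arm partly from the other arms, so this interval does not measure the spread of miR-223-3p alone. On the scale of that fit, CPM (the same unit) after TMM normalization, which corrects for differences in library composition, the level was 5884, 5926 and 5793 in control and 5775, 5657 and 5648 in LPS. The groups did not overlap on this scale, and the difference of the means was larger than the SD of either group, whereas in RPM they overlapped. LPS samples lay wholly below control samples in 1.57% of the arms tested, and wholly above them in 1.57%. Of the 319 arms, 0 passed the adjusted threshold of 0.05 (0%), and 8 had an unadjusted p under 0.05 (2.51%), 7 higher and 1 lower with LPS. Neither arm of Mir223 was among these 8. DESeq2 also called 0, with 4 arms at an unadjusted p under 0.05.

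Reads of miR-223-5p, the minor arm, numbered 1369, 772 and 1146 in control and 1787, 4234 and 710 in LPS. Its level was 535, 450 and 484 RPM in control and 564, 387 and 474 RPM in LPS. The highest and the lowest of all 6 values were both LPS samples. Its log2 fold change was -0.07 (standard error 0.19, 95% interval -0.52 to 0.38, edgeR adjusted p = 0.994), and it was 0.04 without LPS replicate 2 and 0.05 without control replicate 1, so its direction rests on single samples.

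The 5p arm made up 8.70%, 7.27% and 7.37% of miR-223 reads in control and 9.14%, 6.37% and 7.39% in LPS. Replicate 1 was the highest in both groups, and LPS replicate 2 was the lowest sample. The mean was 7.78% ± 0.80 in control and 7.63% ± 1.40 in LPS (SD, n = 3, exact permutation p = 1.0, two-sided). This is 9.94 to 14.7 reads of 3p for each read of 5p. Arms that shared most of their reads with an arm of another hairpin were pooled, and hairpins with a pooled arm were left out here. Smaller overlaps could remain. Over 87 such hairpins with at least 100 RPM, the median share of the minor arm was 2.66%. Mir223, at a mean of 7.71%, ranked 62 from the lowest.

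**Figure D1:**
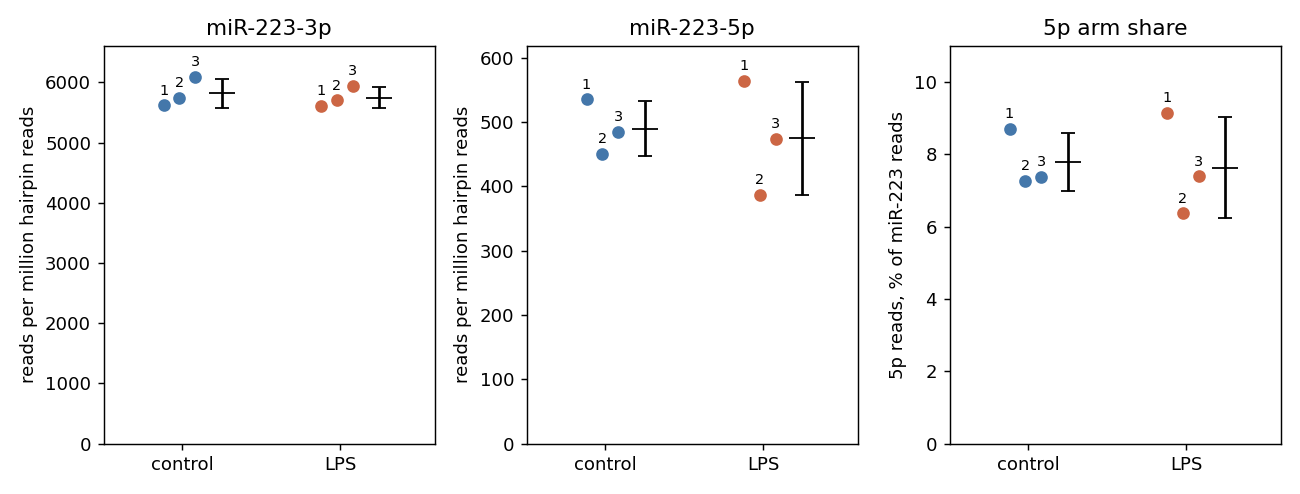
Levels of miR-223-3p and miR-223-5p in RPM, and the 5p share in percent of miR-223 reads, in the 3 control (blue) and 3 LPS (orange) samples. Each point is a sample with its replicate number, the horizontal mark is the group mean and the bar 1 SD, and in each panel the groups overlap.

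By abundance miR-223-3p ranked 22, 23 or 27 of all arms in a sample and 25 by its mean, between miR-101a-3p and miR-186-5p. The mean of miR-101a-3p was 6023 ± 1352 RPM in control and 5896 ± 2024 in LPS (SD, n = 3), and its samples lay on both sides of those of miR-223-3p, so these neighbours do not differ beyond their spread. miR-186-5p, at 5086 to 5326 RPM, lay below the lowest sample of miR-223-3p, at 5607. miR-22-3p, the most abundant arm, was at 191707 to 200003 RPM. miR-142-5p, from a hairpin expressed throughout blood cells, had 3.95 to 4.82 reads for each miR-223-3p read in control and 3.18 to 4.80 in LPS. miR-142-3p had 0.666 to 0.765 in control and 0.674, 1.36 and 0.796 in LPS replicates 1, 2 and 3. LPS replicate 2 stood out in that ratio and miR-142-3p, not miR-223-3p, was the arm that differed there, at 7757 RPM against 3741 to 4722 in the other 5 samples.

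The level of miR-223-3p varied little between samples. Its coefficient of variation over the 6 samples, the SD in percent of the mean, was 1.97% after TMM normalization, the lowest of 140 arms with a mean of at least 100 RPM, whose median was 15.0%. Without LPS replicate 2 it was 1.86%, again the lowest. In RPM it was 3.32%, the lowest but 2, and miR-22-3p was lowest at 1.52%. miR-223-5p had a coefficient of 15.2%, which ranked 72 of 140. Both arms come from the same hairpin. The 5p arm had fewer reads, and whether that bears on its larger spread was not tested.

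**Figure D2:**
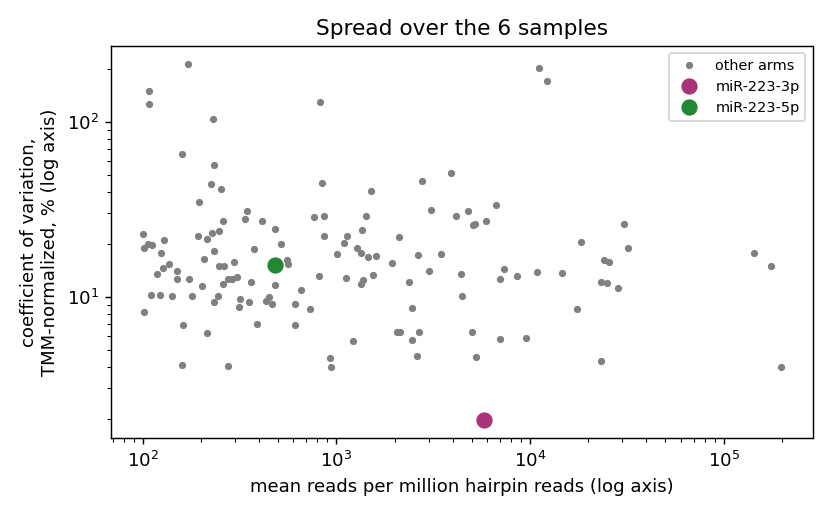
Coefficient of variation over the 6 samples after TMM normalization (percent, log axis) against the mean level in RPM (log axis), for 140 arms that average 100 RPM or more. miR-223-3p (purple) has the lowest value, 1.97%, and miR-223-5p (green) lies at 15.2%, near the median of 15.0%.

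The arms whose log2 levels followed those of miR-223-3p most closely over the 6 samples, among 139 arms, were miR-106b-5p (Pearson r = 0.916), miR-423-3p (0.901), miR-221-3p (0.892), miR-130b-5p (0.880) and miR-23b-3p (0.874). These are descriptions over 6 libraries that share the scaling by hairpin reads, and the whole range of miR-223-3p was 0.12 on the log2 scale, against a median of 0.58 over the arms. miR-223-5p had an r of -0.21 with the 3p arm and ranked 118, and its r was -0.61 without LPS replicate 2.

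Most miR-223-3p reads ended before the reference end. The 19-nt read that stops 3 bases short of RefSeq was the most frequent in all 6 samples, at 33.8%, 34.7% and 33.5% of the arm in control and 34.2%, 29.2% and 32.9% in LPS. LPS replicate 2 was the lowest. The group means were 34.0% ± 0.64 and 32.1% ± 2.57 (SD, n = 3, exact permutation p = 0.3, two-sided), and the LPS minus control difference of -1.91 percentage points was -0.47 without LPS replicate 2. The 18-nt read made up 20.1% and the 20-nt read 15.7% on average. The 22-nt sequence of RefSeq made up 5.60% (4.81% to 6.13% over the samples), and a 23-nt read with the next hairpin base 3.52%.

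Counting every read whose match to the hairpin ends at least 2 bases inside the RefSeq end, 73.1%, 78.0% and 73.4% of miR-223-3p reads were short in control and 73.9%, 69.5% and 73.5% in LPS replicates 1, 2 and 3. The groups overlapped, with the extremes in control replicate 2 and LPS replicate 2 (74.8% ± 2.71 against 72.3% ± 2.43, SD, n = 3, exact permutation p = 0.6, two-sided). The difference of -2.53 percentage points was -1.13 without LPS replicate 2 and -0.96 without control replicate 2. This measure was defined after the reads had been seen. Among 108 arms of single hairpins with a RefSeq entry and a mean of 100 RPM or more, the median of such shares was 3.16%, and miR-223-3p, at a mean of 73.6%, ranked 3, after miR-16-1-3p at 90.7% and miR-339-5p at 74.0%. miR-142-5p was at 26.5%, and miR-142-3p, miR-21a-5p and miR-22-3p were at 0.770%, 0.307% and 0.314% in the same libraries.

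The libraries as a whole had another length. The most frequent read length over all reads was 22 nt in each of the 6 samples, and for miR-223-3p it was 19 nt in each. By itself miR-223-3p supplied 8.30% to 10.6% of all 19-nt reads, but 0.0916% to 0.111% of all 22-nt reads. Mir223 reads of 16 or 17 nt were few, 796 over all 6 samples, and shorter ones were not counted. miR-223-3p had 25.7 to 62.5 reads of 18 nt for each read of 17 nt, while over all reads that ratio was 0.457 to 0.735. A length limit of 18 nt in place of 16 nt therefore removed few of its reads. A limit of 20 nt lowered its level to between 2370 and 2873 RPM, taken over reads of that length.

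miR-223-5p was displaced the other way. Its 28-nt read, 5 bases longer than RefSeq, was 30.3% of the arm on average, the 27-nt read 23.4% and the 29-nt read 13.8%, against 5.32% for the 23-nt RefSeq sequence. Reads that ended at least 3 bases beyond RefSeq made up 82.6%, 77.3% and 81.0% of the arm in control and 85.2%, 75.7% and 82.5% in LPS replicates 1, 2 and 3. The groups overlapped, with the replicates numbered 2 lowest in each (80.3% ± 2.70 against 81.1% ± 4.93, SD, n = 3, exact permutation p = 0.9, two-sided). At a mean of 80.7% miR-223-5p had the highest such share of 108 arms, ahead of miR-101b-3p at 45.7%, and the median was 0.000884%. In the predicted fold of the hairpin (-44.00 kcal/mol by RNAfold), the apical loop took positions 58 to 62, and position 52, where the 27-nt read ends, paired with position 68, the first base of the 3p arm.

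**Figure D3:**
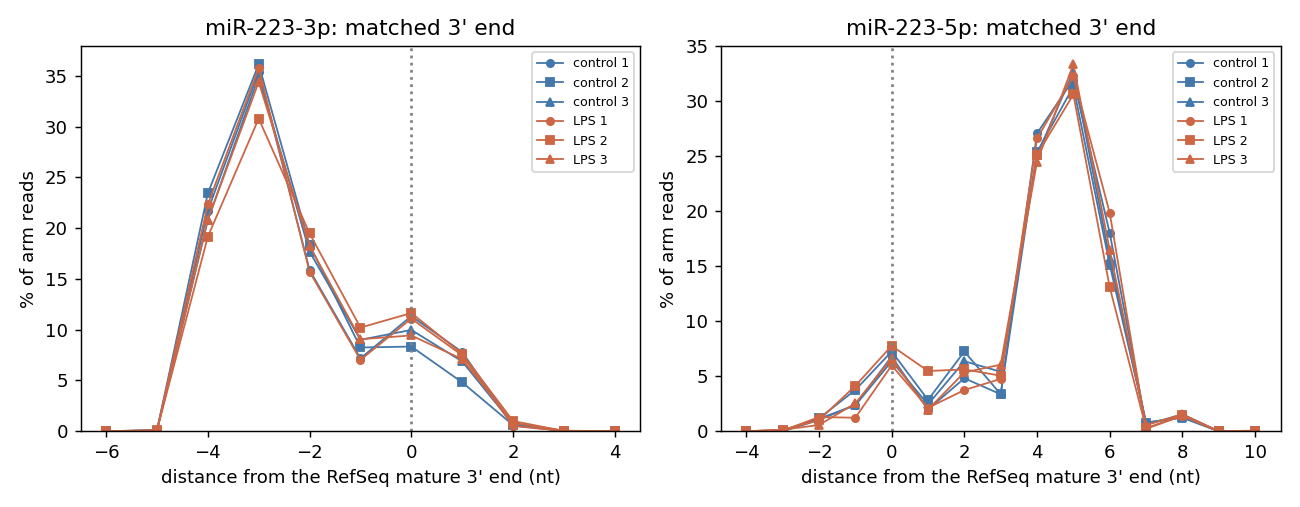
Distance of the matched 3′ end from the RefSeq mature 3′ end (nt, 0 marked by the dotted line) against the percent of arm reads, for miR-223-3p (left) and miR-223-5p (right). Each line is a sample, blue for control and orange for LPS, and all 6 peak 3 nt inside the end for 3p and 5 nt beyond it for 5p.

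**Figure D4:**
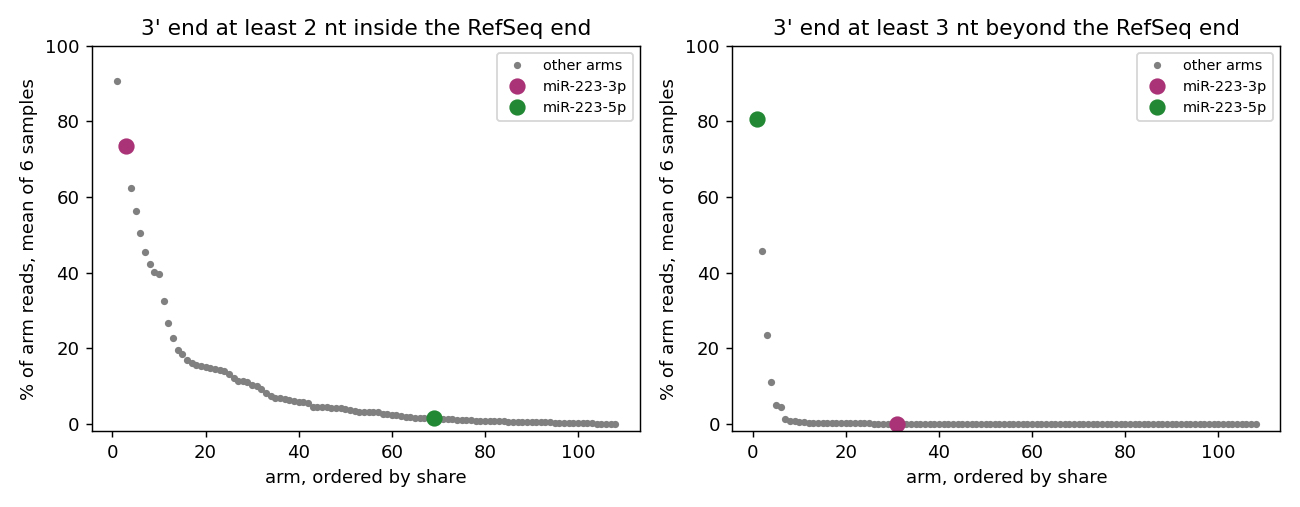
Share of reads (percent, mean of the 6 samples) with a 3′ end at least 2 nt inside (left) or at least 3 nt beyond (right) the RefSeq end, for 108 arms ordered by share. miR-223-3p ranks 3 on the left at 73.6%, and miR-223-5p is first on the right at 80.7%.

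The 5′ ends were more uniform than the 3′ ends. Between 92.1% and 94.7% of miR-223-3p reads began at the RefSeq start. A start 1 base later, which moves the seed to UCAGUUU, was found in 3.36% to 6.08%, and 1 base earlier, with the seed UGUCAGU, in 1.26% to 1.81%. Neither shifted seed belongs to a mature mouse miRNA of RefSeq. All shifted starts together were 5.47%, 5.26% and 5.47% in control and 5.32%, 7.88% and 5.62% in LPS replicates 1, 2 and 3. LPS replicate 2 alone lay above the control range by more than a percentage point (5.40% ± 0.12 against 6.27% ± 1.40, SD, n = 3, exact permutation p = 0.3, two-sided), and without it the LPS minus control difference was 0.074 percentage points. miR-223-3p ranked 28 of 108 arms in this share, and their median was 1.40%. miR-223-5p began at its RefSeq start in 87.7% to 90.7% of reads and 1 base earlier in 3.64% to 6.80%.

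A 3′ tail of bases that do not continue the hairpin can come from addition after transcription or from read errors, which were not told apart. Of miR-223-3p reads, 11.1%, 8.27% and 9.98% carried 1 to 3 such bases in control and 11.3%, 12.7% and 10.3% in LPS replicates 1, 2 and 3. The groups overlapped, with the lowest in control replicate 2 and the highest in LPS replicate 2 (9.79% ± 1.44 against 11.4% ± 1.18, SD, n = 3, exact permutation p = 0.2, two-sided). The difference of 1.64 percentage points was 1.01 without LPS replicate 2 and 0.88 without control replicate 2. LPS was higher in 3 of 3 pairs, by 0.141, 4.42 and 0.366 percentage points (exact sign-flip permutation p = 0.25). With 7 unpaired permutation tests of miR-223, the Benjamini-Hochberg adjusted values were all at or above 0.7. A single U was the most frequent tail, in 4.15% to 6.58% of the arm, followed by a single G in 1.20% to 2.16% and a single A in 1.00% to 1.76%. The arm ranked 68 of 108 in tailing, and their median was 14.1%.

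Tails were unevenly spread over the ends of miR-223-3p. Among reads matched to the RefSeq end a median of 40.7% carried a tail (36.4% to 44.3% over the samples), against 0.765% of those that ended 3 bases earlier (0.422% to 1.15%). The share was 24.6% at 1 base inside and 34.5% at 1 base beyond. The short reads, the most numerous, were thus the least tailed in every sample. A tail that equals the next base of the hairpin cannot be seen: that base is C after the ends of 18, 19 and 20 nt and A after those of 21 and 22 nt, so added A is hidden at the longer ends and added C at the shorter ones.

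**Figure D5:**
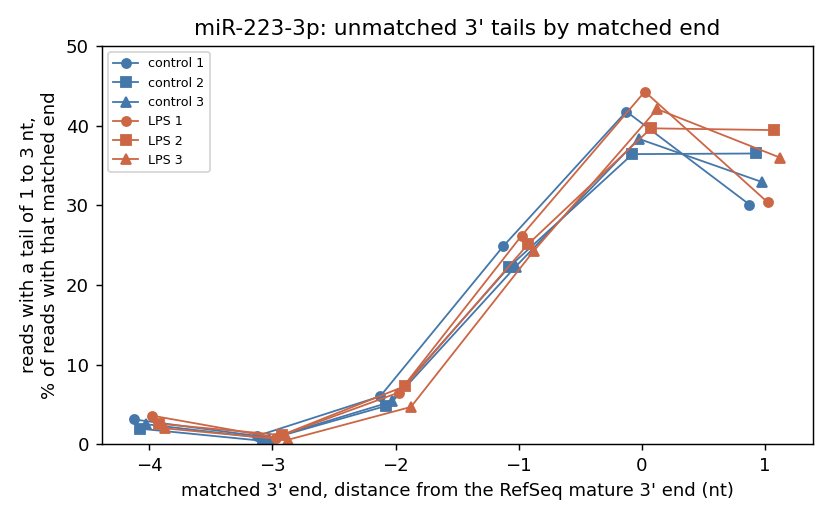
Percent of miR-223-3p reads with an unmatched 3′ tail of 1 to 3 nt among reads with the same matched 3′ end, against the distance of that end from the RefSeq end (nt). Each line is a sample (blue control, orange LPS, shifted sideways for legibility), and all 6 lie at or below 1.15% at 3 nt inside the end and at 36.4% or more at the RefSeq end.

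Other parts of the hairpin gave few reads. Over all 6 samples 26 reads ended before the start of the 5p arm, 0 lay within the loop, and 538 reads of the 5p arm began at positions 28 to 35. In all, 137577 reads of 416 distinct sequences matched Mir223, and 0 of these sequences matched another hairpin.

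Of 24 miRNAs tied to myeloid differentiation or activation, Mir223 included, 23 had reads, 21 were tested and 0 passed the threshold. Their median log2 fold change was -0.04, with 9 above and 12 below 0, against 0.003 over all 319 arms. miR-21a-5p, an abundant miRNA of macrophages, was at -0.15 (standard error 0.20) and miR-142-5p at -0.18 (standard error 0.19), or -0.06 without LPS replicate 2. miR-155-5p, an inducible miRNA of activated macrophages, was at 0.89 (standard error 0.50), with 212 RPM in LPS replicate 2 against 49.0 to 75.3 in the other 5 samples, and its log2 fold change was 0.11 without LPS replicate 2. Of 7 miRNAs tied to Scarb1, which codes for the HDL receptor SR-B1, 5 were tested and 0 passed, as of all 319 arms. Their median was 0.11 with miR-223-3p and 0.84 without it, against 0.003 over all arms. The value of 0.84 rests on LPS replicate 2. The log2 fold change of miR-185-5p was 1.56, or -0.20 without that sample. It was 0.11 for miR-125a-5p, or -0.16 without that sample, and -0.33 for miR-125b-5p, or -0.16. In that list miR-223-3p, at -0.04, stood beside miR-24-3p at 3.49 (standard error 1.39), whose LPS samples were at 1609, 57407 and 2154 RPM and whose log2 fold change was 0.02 without LPS replicate 2.

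The annotated 3′-UTRs of 20 genes were searched on the sense strand for pairing to the miR-223-3p seed, as AACTGACA (8 bases), or AACTGAC or ACTGACA (7 bases, each counted only outside the longer match). Only the longest annotated 3′-UTR of each gene was used. The genes were chosen as known or candidate targets, so counts over them are a description and test nothing. A match describes letters in a sequence, not a site in use. At least 1 match was found in 15 of the 20, and the 8-base match in 9, against 15.1% and 2.97% of 20772 mouse genes with an annotated 3′-UTR. Their median length was 1331 nt, against 967 nt over all genes. Among 3′-UTRs of a length similar to that of each searched gene, 5.05% to 57.0% held a match of 7 or 8 bases, with 8.09% for Nlrp3, 40.7% for Mef2c, 55.3% for Igf1r and 18.9% for Hmgcs1. Sequences of some of these genes are shown, from GRCm38 in the sense of the messenger RNA, with the match in capitals.
Nlrp3, chr11:59566692-59566714, plus strand: tcttcctgttAACTGACcatccc
Mef2c, chr13:83663886-83663909, plus strand: ctattgggtcAACTGACAtccatt
Igf1r, chr7:68226629-68226652, plus strand: ccgaacccttAACTGACAtgggcc
Hmgcs1, chr13:119706580-119706603, plus strand: aatgtaatgtAACTGACAcagagc
Irak3, chr10:120141951-120141973, minus strand: tgctagggatACTGACAgtctat
Irak3 codes for IRAK-M, an inhibitor of Toll-like receptor signalling, and held a single 7-base match in 1067 nt. A match of 7 or 8 bases was present in 12.02% of 3044 3′-UTRs of similar length. Hmgcs1, an enzyme of cholesterol synthesis, held an 8-base and a 7-base match in 1782 nt. The 3′-UTRs of Scarb1 (779 nt) and Smad4 (1249 nt) held 0 matches of 7 or 8 bases, which says only that these letters are not in them. Expression of these genes was not measured in these samples. All of the frequent 3p reads shown first hold the seed that these letters pair with, and the read that starts 1 base later holds it from its first base.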

How the data were processed

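Small RNAs of 6 samples were sequenced (TruSeq small RNA libraries, Illumina HiSeq). Adaptors were trimmed with perl scripts and Btrim64. The authors deposited raw counts of each distinct trimmed read, without miRNA names or normalization. Their mirAnalyzer quantification was not used here, and the processing notes name mm9 as the build. The 1174 hairpins of GENCODE M21 (GRCm38) were searched for reads of 18 nt or more, with no mismatch other than up to 3 bases at the 3′ end. The arm followed from the read's centre. Mature sequences are those of RefSeq (GRCm38.p6).

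Arms were filtered by filterByExpr (319 of 974 kept), TMM-normalized and tested with edgeR 4.0.16 (R 4.3.3), Benjamini-Hochberg adjusted at 0.05. Steps were tested on simulated data. The counts simulated for edgeR varied less between samples than these data, so that run does not show how the test performs here. Shares were compared by two-sided exact permutation tests over all 20 assignments (scipy 1.17.1), with 95% Wilson intervals. The hairpin was folded with RNAfold 2.7.2. DESeq2 1.42.0 and the other alternatives are given at the end. Samples with the same replicate number in the labels deviated together (r = 0.595, 0.259 and 0.277 over 319 arms, against -0.387 to 0.154 for different numbers), so the numbers were taken to pair the samples.

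The text names both arms of Mir223, arms of Mir142, miR-21a-5p, miR-22-3p, the neighbours in abundance, the 5 arms most alike and members of the lists. miR-16-1-3p, miR-339-5p and miR-101b-3p were named after their values were seen. Mir223, the lists and the tests were chosen with earlier results of these data known. Depth was 2201520 to 17691405 reads a sample.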

Additional observations from a re-analysis of the deposited data

How the results depend on the processing

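No processing choice brought either arm of Mir223 past the threshold (edgeR or DESeq2 adjusted p 0.611 to 0.999 over all fits). With the replicate block the log2 fold change was -0.04 for miR-223-3p and -0.08 for miR-223-5p, and the block changed no call. Sign flips within pairs (added after seeing the data) could not change one, since 3 pairs give no p under 0.25. Without the low-count filter 21 arms passed over 974, all higher with LPS and none of them from Mir223, against 0 of 319. With any single sample left out, 0 arms passed, and miR-223-3p ranged from -0.06 to -0.02 and miR-223-5p from -0.247 to 0.051, positive without control replicate 1 (0.051) or LPS replicate 2 (0.040). The LPS minus control difference ranged from -170.8 to 65.6 RPM for the 3p level (positive without control replicate 3), from -0.902 to 0.485 percentage points for the 5p share (positive without control replicate 1 or LPS replicate 2) and from -1.20 to 3.57 for the long 5p reads (negative without control replicate 2 or LPS replicate 1). With reads of 20 nt or more, the 3p difference was 131.8 RPM, and the cause of the turn was not tested. The other 97 of 106 values were scored as unchanged. For the shares and the level in RPM only the direction could change, since the permutation tests give no p under 0.1. Sign flips within pairs keep the direction of the group means by design, and the counts of arms have no direction. The share of the 19-nt read could not be computed at 20 nt, and tails cannot be seen with whole-length matches. Leaving out single samples and other read limits for the short 3p and long 5p reads were added after seeing the data. Upper-quartile normalization moved the median of all arms to -0.08, miR-223-3p to -0.12 and miR-223-5p to -0.14 on the log2 scale, and hairpin totals gave -0.02 for miR-223-3p. The edgeR test had 3 samples a group and drew its spread partly from other arms. It could not tell a change in miR-223-3p within the interval of its fold change from no change. The shallowest samples held 710 to 772 reads of the 5p arm.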
